A study of Mus musculus with 102 samples.

Results

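Of 2177608 CpGs measured by capture bisulfite sequencing in mouse embryonic stem cells (mESCs), 482 were at 40 to 60% methylation both before and 29 days after Cre was given to remove the de novo methyltransferases. They are called stable here only in the sense of these limits, since their median level went from 51.3% at day 0 to 44.2% at day 29. They were chosen by their measured values. Each had at least 100 reads in all 8 deposited columns, and a level of 40 to 60% in wild-type (WT) cells at day 0, in TTKO cells at day 0 and in TTKO cells at day 29. Coverage alone left 1560234 CpGs, of which 30549 were at 40 to 60% in both lines at day 0, and the 482 stable intermediate CpGs made up 1.58% of these. A group of at least 3 of them within 1 kb was called a cluster. There were 18 clusters with 237 CpGs, and 245 CpGs lay outside clusters.

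DNMT3A and DNMT3B place methyl groups on unmethylated CpGs, whereas DNMT1 copies existing methylation onto the new strand after replication. The TET proteins oxidize 5-methylcytosine and so promote its loss. At an imprinting control region, a copy inherited from one parent is methylated and the copy from the other parent is not, which gives a level near 50% in bulk DNA. ZFP57 binds the methylated letters TGCCGC at such regions and is known to help keep them methylated. Bulk levels do not separate the alleles: a CpG methylated on all copies of one allele and a CpG methylated in a random part of the cells give the same value. A thymine in the DNA itself also reads as an unmethylated cytosine.

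WT cells were a C57BL6/J line with wild-type TET and floxed, intact Dnmt3a and Dnmt3b on both alleles, and TTKO cells were a clone of that line with Tet1, Tet2 and Tet3 knocked out. TTKO cells were measured without transduction at day 0 and at days 4, 8, 10, 13, 17 and 29 after transduction with Cre protein, which deletes the floxed Dnmt3 exons in most but not all alleles. WT cells were measured at day 0 only in this assay, so no column shows WT cells after Cre, and no capture libraries of mock-treated TTKO cells were analysed here. Cells were kept on feeder cells before and during transduction and feeder-free afterwards. Each condition had 3 replicates, which the authors joined into a single column, so no spread between replicates can be given. The label of embryonic stem cells could not be checked against expression markers in methylation data.

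The sequences of the larger clusters and of contrasting examples are shown first, since they differ in how closely the stable CpGs are packed. Each run is 180 bases of mm9 (NCBIM37), plus strand, and avoids annotated exons. Among the positions tried in a cluster, the run with the most stable CpGs was taken. Capitals mark the stable intermediate CpGs, and all other CpGs are in lower case.
Peg10, chr6:4697762-4697941: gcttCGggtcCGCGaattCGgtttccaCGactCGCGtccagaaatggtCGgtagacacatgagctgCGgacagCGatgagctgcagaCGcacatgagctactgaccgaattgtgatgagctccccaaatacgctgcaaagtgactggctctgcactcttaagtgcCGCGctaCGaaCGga
Kcnq1, chr7:150481441-150481620: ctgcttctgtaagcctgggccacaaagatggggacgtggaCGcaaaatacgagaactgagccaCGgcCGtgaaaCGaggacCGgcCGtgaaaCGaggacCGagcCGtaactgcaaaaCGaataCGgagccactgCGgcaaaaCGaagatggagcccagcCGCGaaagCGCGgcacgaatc
Trappc9, chr15:72639907-72640086: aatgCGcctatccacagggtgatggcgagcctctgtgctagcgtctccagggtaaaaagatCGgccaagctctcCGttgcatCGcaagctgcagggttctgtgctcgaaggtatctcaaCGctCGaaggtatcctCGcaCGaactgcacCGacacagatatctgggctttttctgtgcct
Mest, chr6:30687222-30687401: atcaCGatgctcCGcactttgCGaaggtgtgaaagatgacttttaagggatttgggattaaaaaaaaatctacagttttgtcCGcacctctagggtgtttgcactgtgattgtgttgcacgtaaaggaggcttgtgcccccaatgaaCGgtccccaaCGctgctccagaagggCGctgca
Peg3, chr7:6683760-6683939: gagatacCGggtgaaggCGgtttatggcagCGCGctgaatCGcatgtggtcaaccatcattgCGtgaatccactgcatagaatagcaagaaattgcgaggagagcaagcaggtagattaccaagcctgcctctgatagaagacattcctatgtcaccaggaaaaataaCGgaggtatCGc
upstream of H19, chr7:149766144-149766323: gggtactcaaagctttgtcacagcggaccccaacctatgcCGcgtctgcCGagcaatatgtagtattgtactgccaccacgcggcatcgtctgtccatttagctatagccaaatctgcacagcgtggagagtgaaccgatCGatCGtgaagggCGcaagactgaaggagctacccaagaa
Nrp2, chr1:62841380-62841559: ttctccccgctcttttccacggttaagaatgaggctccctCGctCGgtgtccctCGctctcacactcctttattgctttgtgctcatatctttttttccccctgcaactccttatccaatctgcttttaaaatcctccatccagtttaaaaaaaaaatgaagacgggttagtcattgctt
nearest start Emid1, chr11:5068515-5068694: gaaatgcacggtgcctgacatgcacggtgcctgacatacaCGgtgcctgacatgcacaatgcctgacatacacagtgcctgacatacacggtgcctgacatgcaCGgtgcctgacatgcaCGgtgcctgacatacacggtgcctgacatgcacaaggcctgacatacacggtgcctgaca
The Kcnq1 run held 17 stable CpGs among 20 CpGs and the Peg10 run 15 among 17. The Trappc9 run held 9 among 12, the Mest run 7 among 8, the Peg3 run 8 among 9 and the run upstream of H19 5 among 12. The runs were placed to hold many stable CpGs, so they do not stand for the whole clusters. Over the whole spans there were 59 stable CpGs among 136 measured at Peg10, 33 among 68 at Kcnq1 and 31 among 86 at Trappc9. There were 30 among 81 at Mest, 19 among 97 at Peg3 and 9 among 22 upstream of H19. The Nrp2 run held 3 stable CpGs among 6, and the run nearest to Emid1 held 3 among 8 CpGs of a short tandem repeat. Both were shown as contrasts after their values were seen. The letters TGCCGC, on either strand, occurred 2 times in the Kcnq1 run, 2 times in the run upstream of H19 and once in the Peg10 run.

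The next 4 runs are of 62 bases each around a stable CpG outside clusters, on the same build and strand. They were chosen after the values were seen, as the examples that were furthest below their nearest measured CpG at day 29. The search took CpGs outside exons with no near copy elsewhere in the genome, whose neighbour was at most 25 bases away and above 70% at day 0. Stable CpGs beside a lower neighbour are counted further on.
nearest start Ccdc89, chr7:97559299-97559360: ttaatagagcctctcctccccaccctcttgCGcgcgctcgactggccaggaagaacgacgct
nearest start Slc38a2, chr15:96574570-96574631: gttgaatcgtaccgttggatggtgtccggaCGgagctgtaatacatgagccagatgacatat
nearest start Pkdcc, chr17:83410162-83410223: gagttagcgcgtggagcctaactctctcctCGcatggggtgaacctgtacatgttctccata
nearest start Piwil1, chr5:129332428-129332489: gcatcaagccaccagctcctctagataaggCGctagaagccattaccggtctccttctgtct
The stable CpG of the first run, 15493 bases from the start of Ccdc89, was at 48.6% in WT cells, 48.1% in TTKO cells at day 0 and 48.3% at day 29 (95% Wilson interval 42.7 to 54.0, 300 reads). The next measured CpG, 2 bases away, was at 91.0, 93.7 and 95.9% in the same columns. In the run nearest to Slc38a2, the stable CpG was at 40.5% at day 29 (36.5 to 44.7, 543 reads) and a CpG 4 bases away at 84.0%. The stable CpG nearest to Pkdcc was at 44.3% (37.3 to 51.5, 183 reads) beside a CpG at 84.3%, and the one within Rimbp2 at 40.7% (34.1 to 47.6, 199 reads) beside a CpG at 79.7%. These CpGs thus had intermediate levels next to CpGs with high levels. Sequence differences between the alleles, which bisulfite reads can show as an intermediate level, were not tested here. The intervals cover counting error only.

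Among the 30549 CpGs at 40 to 60% in both lines at day 0, the level at day 29 had a median of 14.9% and a highest value of 67.5%. No gap set the stable CpGs apart. There were 136 CpGs from 38 to under 40%, 133 from 40 to under 42%, 98 from 42 to under 44% and 74 from 44 to under 46%. Just inside the lower limit at day 29, from 40 to 40.9%, there were 83 CpGs, and 72 CpGs that met all other limits lay just outside, from 39 to 39.9%. At the upper limit at day 0 in TTKO cells, 41 CpGs lay just inside and 58 just outside. Only 4 CpGs left the band upwards at day 29. The 95% Wilson interval of the day 29 level reached a median of 5.75 points to each side. It lay wholly within the band for 180 of the 482 CpGs and reached below 40% for 280.

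**Figure D1:**
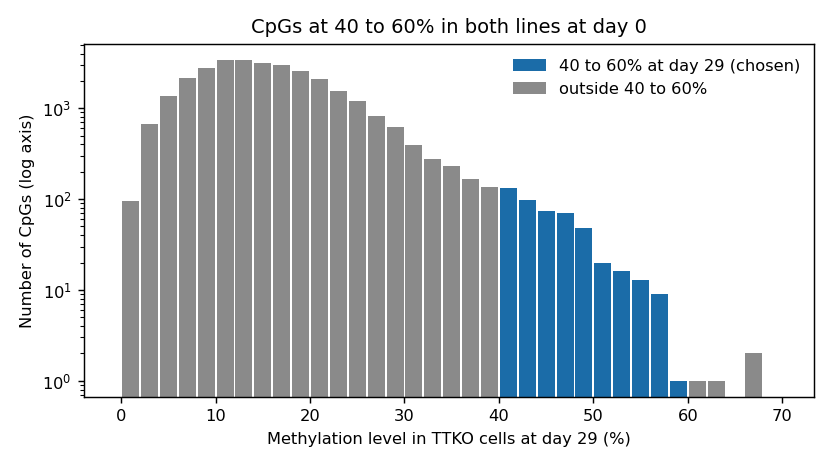
The x axis gives the methylation level (%) in TTKO cells at day 29 and the y axis, on a log scale, the number of CpGs per bin of 2 points, for the 30549 CpGs at 40 to 60% in both lines at day 0. The chosen CpGs (blue, 482) are the upper end of a continuous distribution whose median is 14.9%.

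The levels at days 4 to 17 were not used to choose the CpGs. The stable CpGs in clusters had a median of 47.5% at day 0 and of 46.3, 46.4, 46.2, 44.7 and 44.2% at days 4, 8, 10, 13 and 17. Those outside clusters started at a median of 55.4% and had medians of 55.2, 53.6, 51.5, 49.9 and 46.5% on the same days. The remaining 30067 CpGs that were intermediate at day 0 went from 53.8% at day 0 to 51.3, 43.0, 38.1, 34.0 and 25.5%. The median outside clusters was thus above that in clusters up to day 17, and at day 29 the medians were 43.9 and 44.3%. At all 5 days from 4 to 17, 266 of the 482 CpGs (55.2%) were at 40 to 60%, against 392 (1.3%) of the remaining intermediate CpGs. The remaining CpGs were outside the band at day 29 by the choice, 30063 of them below it. The choice thus favours a difference between the sets at the days before, and these shares are no separate support for it. Single levels at day 8, the column with the fewest reads, ranged from 28.1 to 71.4%.

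**Figure D2:**
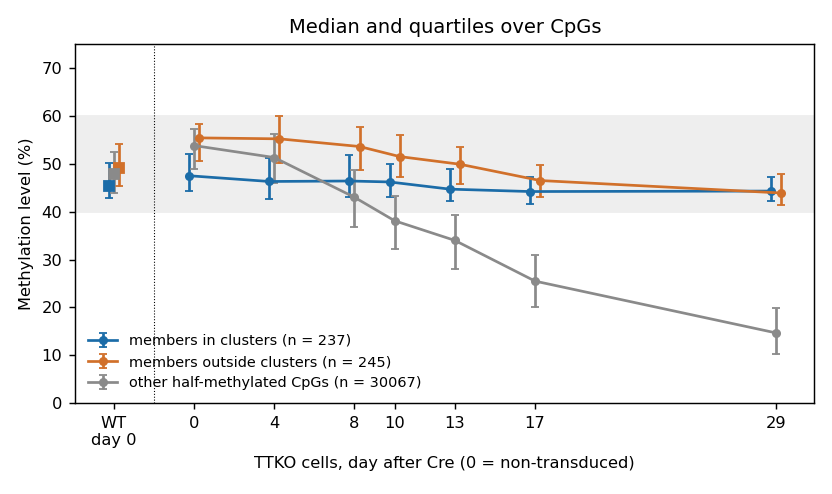
Points are medians over CpGs of the methylation level (%, y axis) and bars the quartiles, in WT cells at day 0 (squares) and TTKO cells by day after Cre (x axis), and the grey band is 40 to 60%. CpGs in clusters (blue) stay between 44.2 and 47.5% in TTKO cells, those outside clusters (orange) go from 55.4 to 43.9%, and the remaining intermediate CpGs (grey) go from 53.8 to 14.7%.

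Day 17 was compared with day 4 at every CpG by Fisher's exact test on the pooled reads, two-sided, with Benjamini-Hochberg adjustment over all 1560234 CpGs and a threshold of 0.05. Methylation was lower at day 17 for 146 of the 482 stable CpGs (30.3%), where 60.1% of all CpGs tested were lower. It was higher for 1 of them, where 0.143% of all CpGs tested were higher. In clusters 33 of 237 (13.9%) were lower, with a median difference of -2.2 points, and outside clusters 113 of 245 (46.1%), with a median of -7.8 points. Of the remaining intermediate CpGs 98.6% were lower, with a median of -25.5 points. The 60.1% also counts CpGs with little to lose, since the lower quartile over all CpGs tested was 1.9% at day 4. These shares were not compared by a test. The test compares pooled libraries and not replicated conditions, and the limits at days 0 and 29 also bound what these CpGs could lose in between. An over-dispersion of 0.0055 between replicates was also tried, a setting for amplicon replicates that cannot be checked in the joined capture columns. With it, 94 of the 482 (19.5%) were lower against 55.9% of all CpGs tested. With day 13 in place of day 17 it was 76 (15.8%) against 45.8%.

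Of the 18 clusters, 8 lay within 10 kb of a gene known to be imprinted in the mouse, and these held 195 of the 237 clustered CpGs. Around the 67 listed imprinted genes, 62 of which the GENCODE M1 annotation names, lay 41.1% of the stable CpGs, 0.715% of the remaining intermediate CpGs and 0.395% of all CpGs with 100 reads. Near a listed gene, 47.9% of the 413 CpGs that were intermediate in both lines at day 0 were stable, against 0.942% elsewhere. The 8 clusters near a listed gene were 356 to 2853 bases long. Among the other 10, 6 were at most 30 bases long.

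**Figure D3:**
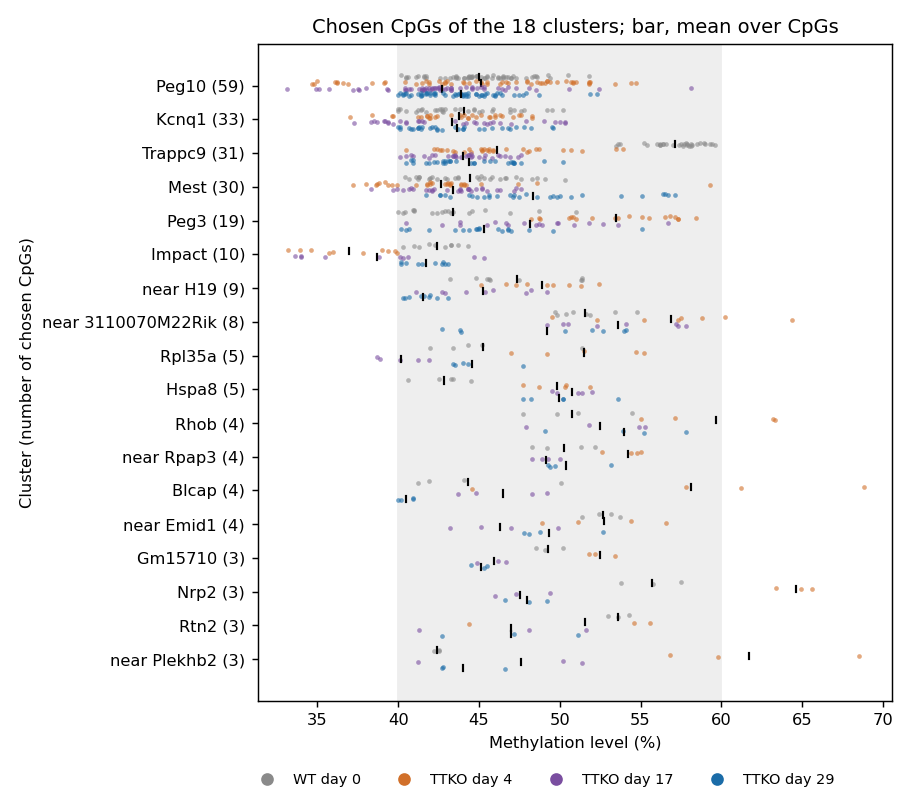
Each point is the methylation level (%, x axis) of a stable CpG in a cluster (y axis, with the number of CpGs), in WT cells at day 0 and TTKO cells at days 4, 17 and 29, and black bars are means over CpGs. The grey band is 40 to 60%. The Trappc9 cluster is near 57% in WT cells and near 44% in TTKO cells at day 29, and the Impact cluster is below the band at day 4.

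The largest cluster lay at Peg10, a paternally expressed gene derived from a retrotransposon, whose control region it shares with the neighbouring gene Sgce. It spanned chr6:4697116-4699467, 2352 bases, with 59 stable CpGs, of which 7 were in exons. Their mean level was 45% ± 2.6 in WT cells (SD over CpGs, as for all clusters) and 44.8% ± 2.84 in TTKO cells at day 0. At days 4, 8, 10, 13, 17 and 29 the means were 45.1, 45.1, 44.5, 43.4, 42.7 and 43.9%. Day 17 was lower than day 4 at 6 of the 59 CpGs. Of all 136 CpGs measured within the span, including those that missed the limits, 128 were between 30 and 70% at day 29.

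The second cluster lay in an intron of Kcnq1, a potassium channel gene, where the imprinting control region and the start of the antisense RNA Kcnq1ot1 are known to be. It spanned chr7:150481481-150482663 with 33 stable CpGs. Mean levels were 44.1% ± 2.89 in WT cells, 45.4% ± 2.7 in TTKO cells at day 0 and 43.8, 44.3, 46.1, 41.8, 43.3 and 43.7% from day 4 to day 29. Of 68 CpGs measured in the span, 67 were between 30 and 70% at day 29. Day 17 was lower than day 4 at 2 of the 33 CpGs.

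The third cluster lay in an intron of Trappc9, a gene of the vesicle tethering machinery that is known to host the imprinted RNA Peg13. It spanned chr15:72639623-72641350 with 31 stable CpGs. This cluster differed between the lines already at day 0, with 57.2% ± 1.66 in WT cells and 48.1% ± 4.44 in TTKO cells. All 31 CpGs were at 53.5 to 59.6% in WT cells and at 40.6 to 56.7% in TTKO cells. The TTKO means then ran 46.1, 47.9, 44.7, 45.8, 44 and 44.4% from day 4 to day 29, and 1 of the 31 CpGs was lower at day 17. The 28 CpGs measured 1 to 5 kb from the cluster had a median of 82.2% at day 0 and 60.8% at day 29.

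The Mest cluster covered chr6:30686965-30689520 with 30 stable CpGs, 9 of them in exons and 2 of these in coding sequence. Mest, a paternally expressed gene for a hydrolase-fold protein, is a classic imprinted gene. The mean went from 50.1% ± 4.33 at day 0 to 42.7% at day 4, stayed at 43.4 to 43.9% from day 8 to day 17 and was 48.4% ± 4.62 at day 29. In WT cells it was 44.5% ± 2.79. The level was thus lowest at the days between those used for the choice. None of the 30 CpGs was called lower at day 17 than at day 4 by Fisher's exact test, and 1 was at an unadjusted p under 0.05. The 49 CpGs 1 to 5 kb away went from a median of 55.0% at day 0 to 27.0% at day 29.

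At Peg3, a paternally expressed zinc finger gene, 19 stable CpGs lay in chr7:6681141-6683993. Their mean was 43.4% ± 2.94 in WT cells and 52.9% ± 3.37 in TTKO cells at day 0, and it then ran 53.5, 54.4, 50.5, 48.5, 48.2 and 45.3%. Day 17 was lower than day 4 at 5 of the 19 CpGs. Of the 97 CpGs measured in the span, 75 were between 30 and 70% at day 29 and 6 were below 20%. The all-CpG median of the span was 39.5% in WT cells, and in TTKO cells 45.6% at day 0 and 36.5% at day 29.

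The Impact cluster on chromosome 18 spanned 1193 bases at chr18:13130575-13131767 with 10 stable CpGs. Impact is a paternally expressed gene for a regulator of translation. Means were 42.4% ± 1.29 in WT cells and 43.6% ± 1.84 in TTKO cells at day 0. At day 4 all 10 CpGs were between 33.2 and 39.9%, with a mean of 36.9%. The means were 40.2, 42.3, 43.3, 38.7 and 41.7% at days 8 to 29. Methylation was higher at day 17 than at day 4 at 1 CpG, the only such call among the 482 CpGs.

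Upstream of H19, a maternally expressed noncoding RNA, 9 stable CpGs lay in chr7:149766184-149766681, centred 2384 bases from the transcription start. Their mean was 47.4% ± 3.19 in WT cells and 53.4% ± 2.36 in TTKO cells at day 0. From day 4 it ran 48.9, 49.8, 47.3, 47.5, 45.3 and 41.5%, so that 77.8% of the day 0 level was left at day 29. At day 29 all 9 CpGs were between 40.3 and 43.1%, close to the lower limit of the choice. None of the 9 was called lower at day 17 by Fisher's exact test, and 1 was at an unadjusted p under 0.05.

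At Nnat, a paternally expressed gene that lies within an intron of Blcap, 4 stable CpGs lay in chr2:157385176-157385531. The mean went from 55.6% ± 4.09 at day 0 to 58.1% at day 4, 46.5% at day 17 and 40.5% ± 0.469 at day 29. That is 73.1% of the day 0 level, the lowest share of the 18 clusters. Day 17 was lower than day 4 at 3 of the 4 CpGs. The Nnat CpGs were stable only in the sense of the limits, with all 4 at 40 to 40.9% at day 29.

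The 10 clusters away from listed genes held 42 stable CpGs. The largest lay 430 bases from the start of 3110070M22Rik, in chr13:120277485-120277755, with 8 CpGs and means of 51.5% ± 1.79 in WT cells, 54.8% ± 3.75 at day 0 and 49.2% ± 4.9 at day 29. The median coverage of its CpGs ran from 160 to 3312 reads, far wider than at any other cluster, and 18 of its 27 measured CpGs were above 60% in at least one of the columns used for the choice. Day 17 was lower than day 4 at 4 of the 8 CpGs. The cluster within Rpl35a, a ribosomal protein gene, and the overlapping Gm17106 had 5 CpGs within 18 bases, all in annotated exon but not coding sequence. Its mean fell from 51.5% ± 3.52 at day 4 to 40.2% ± 1.4 at day 17, with 4 of 5 CpGs called lower, and was 44.6% ± 1.78 at day 29.

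The cluster in coding sequence of Hspa8, which encodes the heat shock protein HSC70, had 5 CpGs within 26 bases. Its means were 42.9% ± 1.45 in WT cells, 49.1% ± 1.76 at day 0 and 50% ± 2.32 at day 29, and none of the 5 was called lower at day 17 by Fisher's exact test, adjusted or not. All 5 Hspa8 CpGs lay in sequence with 4 or 5 near copies elsewhere in mm9, where a near copy aligns over at least 90% of the CpG and 50 bases on each side, with at least 90% identity. The 4 CpGs nearest to Emid1 had 36 to 44 near copies each. No member of the other 16 clusters had a near copy. The part of such copies in the levels was not tested.

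The cluster within 13 bases at Rhob, a small GTPase gene, had 4 CpGs at 49.8% ± 4.13 at day 0, 59.7% ± 4.24 at day 4 and 54.0% ± 3.65 at day 29. The intergenic cluster whose nearest start is that of Rpap3, at chr15:97338237-97338377, had 4 CpGs at 49.5% ± 1.54 at day 0 and 50.4% ± 1.87 at day 29. None of these 8 CpGs was called lower at day 17 by Fisher's exact test, adjusted or not. The remaining clusters, of 3 or 4 CpGs each, had means of 46.1 to 58.5% at day 0 and 44 to 49.4% at day 29. Day 17 was lower than day 4 at all 3 CpGs in Nrp2, by a mean difference of -17.1 points, and at all 3 in the cluster nearest to Plekhb2, by -14.1 points. It was lower at 1 of 4 CpGs nearest to Emid1, 1 of 3 in Gm15710 and 0 of 3 in Rtn2. These smaller clusters are named here after their values were seen.

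The surroundings of the clusters differed. At Hspa8 the 149 CpGs measured 1 to 5 kb away had a median of 1.4% at days 0 and 29. At Rpl35a the 134 such CpGs had medians of 1.1 and 1.0%. Both clusters were thus short intermediate stretches with mostly unmethylated CpGs at that distance. Around the cluster nearest to Rpap3, 12 CpGs had medians of 85.7% at day 0 and 63.5% at day 29, and upstream of H19 48 CpGs had medians of 73.3 and 46.4%. For Peg10 and Kcnq1 only 1 CpG each was measured at that distance, and for Impact none.

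**Figure D4:**
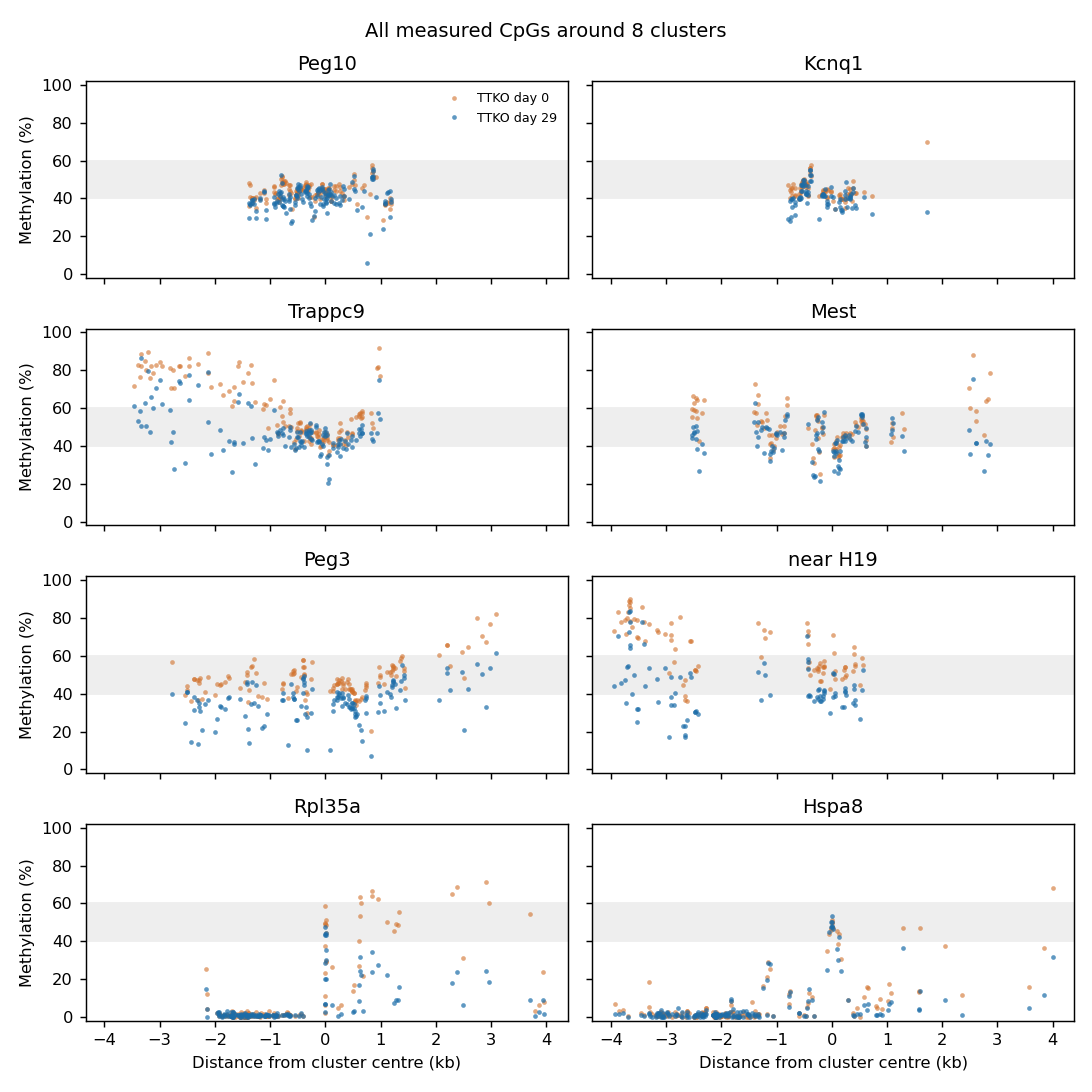
The y axis gives the methylation level (%) of every measured CpG within 4 kb of the centre of 8 clusters (x axis, distance in kb along the plus strand), in TTKO cells at day 0 (orange) and day 29 (blue), with 40 to 60% in grey. At Trappc9 levels dip from high flanks to the band, at Peg10 and Kcnq1 nearly all measured CpGs lie near it, and at Hspa8 and Rpl35a most CpGs to the left of the cluster are near 0, whereas several to its right are intermediate or high at day 0.

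The nearest measured CpG that was not itself stable was taken for each CpG, within 200 bases. Many stable CpGs close together shared a neighbour, which was counted once for each of them. The shares are thus over stable CpGs and not over separate neighbours. For all 237 CpGs in clusters such a neighbour existed, at a median distance of 17 bases. Its median level was 45% at day 0 and 39.3% at day 29, and 92.4% of these neighbours were at 30 to 70% at day 29. Of the 245 CpGs outside clusters, 232 had such a neighbour, at a median distance of 16 bases. Here the neighbours had a median of 67.8% at day 0 with quartiles of 49.9 and 80.9%, and 57.3% were at 30 to 70% at day 29. In the 8 clusters near a listed gene, 192 of 195 neighbours (98.5%) were at 30 to 70%. In the other 10 clusters this held for 27 of 42 (64.3%), with neighbours from 0.8 to 73.1%. The difference between these groups was not tested.

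Outside clusters, the neighbour was above 70% at day 0 for 104 CpGs, at 30 to 70% for 103 and below 30% for 25. In the first group the stable CpGs had medians of 54.2% at day 0 and 44.5% at day 29, and their neighbours 82.5 and 65.4%. At day 29 the neighbour was higher at 91 of these 104 CpGs, by a median of 20.6 points over the group. In the second group the neighbours went from 59.5 to 36.0%. In the third group the neighbours were at 15.8 and 3.4%, and none was higher than its stable CpG at day 29. Sequence differences between alleles were not tested at these CpGs either. The stable CpGs themselves had like medians at day 29 in the 3 groups, 44.5, 43.9 and 43.3%, as the choice of 40 to 60% demands.

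**Figure D5:**
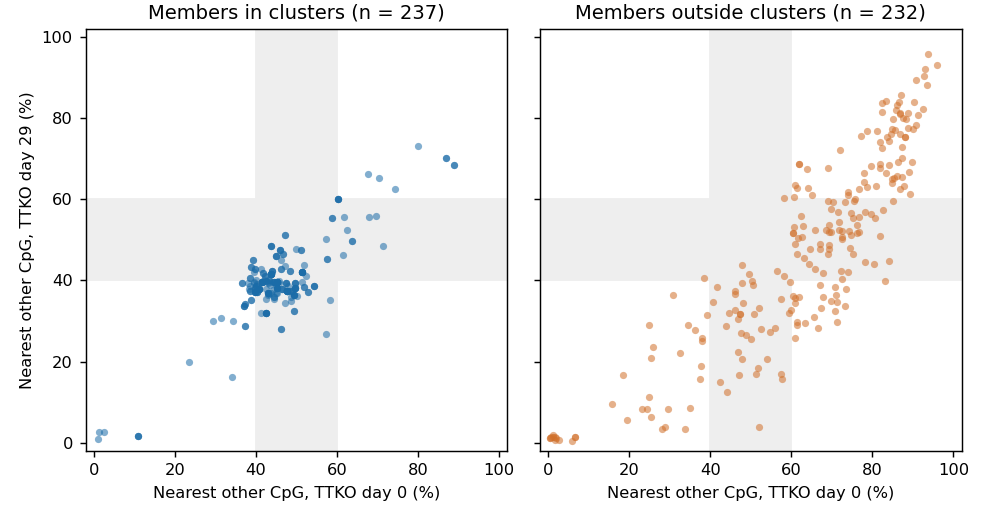
Each point is the nearest measured CpG, within 200 bases, that is not itself stable, with its methylation level (%) in TTKO cells at day 0 (x axis) and day 29 (y axis), and grey bands mark 40 to 60%. A neighbour shared by several stable CpGs is drawn once for each. Neighbours of CpGs in clusters (left, 237) are mostly near the band, and neighbours of CpGs outside clusters (right, 232) run from near 0 to above 90%.

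The number of CpGs outside clusters differed between chromosomes. Overall there were 15.7 per 100000 CpGs tested. Chromosome 5 held 47 (42.8 per 100000), chromosome 1 held 29 (33.4) and chromosome 15 held 28 (41.1), whereas chromosome 16 held none among 47322 CpGs tested and chromosome 2 held 8 (6.91). Of the 104 CpGs with a neighbour above 70%, 16 were on chromosome 15, 16 on chromosome 5 and 15 on chromosome 1. Leaving out CpGs with a near copy elsewhere in the genome, 28 of the 47 on chromosome 5 were left, 27 of the 29 on chromosome 1 and 26 of the 28 on chromosome 15. The densest 10 Mb were at 10 to 20 Mb of chromosome 5, where 10 CpGs fell between 14903509 and 15186464 among 1010 tested, and all 10 had 2 to 7 near copies. These counts were not tested against chance, and they are counts along the genome of a single pair of related lines.

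Near copies and high coverage were more common outside clusters. A near copy elsewhere in mm9 was found for 71 of 245 CpGs outside clusters (29.0%), for 9 of 237 in clusters (3.8%) and for 199 of 3006 searched among the remaining intermediate CpGs (6.62%), where 1 in 10 was searched. Median coverage was above 1000 reads at 20 CpGs outside clusters (8.16%), 3 in clusters (1.27%) and 1.85% of all CpGs tested. Among the stable CpGs the highest was 4818 reads. Without the 80 CpGs that had a near copy, 402 stable CpGs and 16 clusters were left, and 115 were lower at day 17. The part of read placement in the levels outside clusters was not tested.

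The CpGs in clusters had more CpGs around them than the others on the median, which the demand for 3 within 1 kb favours. The median number of CpGs within 250 bases to either side, the CpG itself included, was 27 in clusters, 9 outside clusters, 6 for the remaining intermediate CpGs and 13 for all CpGs tested. The clusters ranged widely, from a median of 10 at Nrp2, 13.5 at the cluster nearest to Rpap3, 14 at Hspa8 and 15 at Rpl35a to 59 at Rhob. Within 1 kb of a transcription start lay 49.8% of the CpGs in clusters, 20.8% of those outside, 13.5% of the remaining intermediate CpGs and 39.8% of all CpGs tested. Intergenic positions made up 8.44% in clusters, 38.4% outside, 40.1% of the remaining intermediate CpGs and 25.9% of all CpGs tested. The letters TGCCGC, on either strand, occurred within 150 bases of 48.9% of the CpGs in clusters and 6.94% of those outside. In the 8 clusters near a listed gene this was 109 of 195 CpGs (55.9%), and in the other 10 it was 7 of 42 (16.7%), with 7 of these clusters at 0. The share was 3.40% for the remaining intermediate CpGs and 11.0% for all CpGs tested. Among the larger clusters near listed genes, this was the case for 31 of 59 CpGs at Peg10, 22 of 30 at Mest, 17 of 33 at Kcnq1, 16 of 31 at Trappc9, 9 of 10 at Impact and 7 of 19 at Peg3. CpGs close together share the same occurrence of the letters, so these shares do not count separate sites. The letters hold a CpG themselves, and the shares were not adjusted for the differing number of CpGs. A match of letters says nothing of binding.

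Not all listed imprinted genes had stable CpGs. Of the 61 listed genes with a CpG of 100 reads within 10 kb, 12 had a stable CpG there, among them neighbours that share the same CpGs, such as Peg10 and Sgce or Nnat and Blcap. Meg3, a maternally expressed noncoding RNA gene, had 1 stable CpG among 12 that were intermediate in both lines at day 0. Airn, an antisense RNA gene whose start lies in Igf2r, had 16 intermediate CpGs at day 0 and Gnas, which encodes a G protein subunit, had 10, and none of these was stable. Only 3 CpGs outside clusters lay within 10 kb of a listed gene.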

How the data were processed

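The capture assay (SureSelect) enriches bait regions of genomic DNA before bisulfite conversion and sequencing. Per the study's methods, 51-base paired reads were aligned to mm9 with Rbowtie in QuasR and called with qMeth. The authors deposited, per CpG and condition, the coverage as a count of reads and the methylation level as a percent, with the 3 replicates joined and no normalization. Coverage was at least 50 in every column. The authors' inferred rates, TET activity and confidence classes were not used. Reads were not realigned.

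Methylated reads were coverage times level, rounded. All 24 capture libraries entered through their joined columns, with a median coverage of 152 (day 8) to 269 reads (day 17). The stable CpGs had a median coverage of 280.5 reads. CpGs, clusters, flanks, motif and neighbours were computed in Python 3.11.15 with pandas 2.3.3, numpy 2.4.6, numba 0.67.0 and SciPy 1.17.1, near copies with BLAST 2.17.0. Genes are from GENCODE M1 (mm9). Fisher's exact test was tested on simulated data. Clusters were named by a rule, the 12 with the most CpGs and all within 10 kb of a listed imprinted gene, and the remaining 5 after their values were seen. The members, the gene list (from general knowledge) and the tests were chosen with earlier results of these data known. The amplicon tables have values per replicate, but none of their 405 CpGs was a stable intermediate CpG, so the planned quasi-binomial test was not run.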

Additional observations from a re-analysis of the deposited data

How the results depend on the processing

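The number of stable CpGs depended on the limits. It was 806 with coverage of at least 50 and 214 with at least 200, 3497 with a band of 35 to 65%, 68 with 45 to 55%, and 266 when all 8 columns had to lie at 40 to 60%. The 18 clusters became 70 with the wider and 4 with the narrower band, and 11 when 5 CpGs within 1 kb were asked for. The 146 CpGs lower at day 17 than at day 4 (30.3%, against 60.1% of all CpGs) became 242 of 806 with coverage of at least 50 (30.0% against 52.0%), 94 with over-dispersion of 0.0055 between replicates (19.5% against 55.9%), 76 with day 13 in place of day 17 (15.8% against 45.8%), and 33 of 237 among clustered CpGs alone (13.9%). The share with TGCCGC was 27.6% within 150 bases, 14.1% within 50 and 36.1% within 250. Of 28 alternatives, 14 stayed within the limits used, the others being those given here. For counts the limit was 1.5 times the value reported. The shares with TGCCGC were judged by a confidence interval instead. The alternatives that left out CpGs with near copies were chosen after seeing the data. Fewer reads, wider bands and fewer columns by construction admit more CpGs. No paired analysis was possible because the replicates are joined in the capture columns and no stable CpG was measured in the amplicons. The alternatives of the amplicon test, which were the replicate block, leaving out each replicate and a coverage minimum of 500, were not run because that test had no CpG.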
